A study of Mus musculus with 12 samples.

Results

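The nuclear genes of the respiratory chain were followed across 12 RNA-seq libraries of mouse liver macrophages. They were chosen by symbol: Ndufa, Ndufb, Ndufc, Ndufs or Ndufv with a digit (complex I), Sdha to Sdhd (complex II), Uqcr genes and Cyc1 (complex III), subunit genes of Cox4 to Cox8 (complex IV) and genes starting Atp5 (complex V, the ATP synthase). Pseudogenes and assembly factors were left out. Among the 25700 genes counted, 85 protein-coding genes matched, and 82 were kept because they reached 1 CPM (counts scaled to a common library size) in 3 or more libraries. The kept genes were 37 of 37 for complex I, 4 of 4 for complex II, 9 of 9 for complex III, 15 of 18 for complex IV and 17 of 17 for complex V. All 82 were among the 13844 genes that entered the tests.

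The respiratory chain passes electrons from NADH (through complex I) and from succinate (through complex II) to ubiquinone, then through complex III and cytochrome c to complex IV, where oxygen is reduced. The proton gradient that complexes I, III and IV build drives the ATP synthase, complex V. Most subunits are encoded in the nucleus and imported, complex II entirely so, whereas a small set is made inside the mitochondrion from its own genome. In macrophages the chain is known to be remodelled on inflammatory activation, when succinate oxidation and the use of oxygen for ATP production change.

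Cells were taken from digested livers of mice whose Spta gene, for the red cell protein alpha-spectrin, was either wild type (WT) or carried the spherocytosis allele on both copies (sph/sph). Mutant animals make fragile, spherical red cells and are anaemic from haemolysis. Mice of each genotype were injected intraperitoneally with saline or with agonistic anti-CD40 at 20 mg/kg, an antibody whose binding to the receptor CD40 activates macrophages, and were collected 30 h later. This gave 4 groups of 3 libraries, which the series' design text describes as 3 mice each with littermate controls. Per the labels the mice were male and 8 to 10 weeks old, and no strain is named in the labels used here. Macrophages were enriched with magnetic beads and an antibody to the surface protein F4/80, so other liver and blood cells were still present. In such bulk samples fewer cells of a type and less RNA per cell cannot be told apart.

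Libraries within a group are called A, B and C by column order, and a letter does not pair libraries. Within each treatment the columns of WT A and sph/sph A share an identification number whose meaning is not given, and no other columns do. Both A libraries after anti-CD40 had the highest sum of members in their group. The 12 libraries held 14991250 to 18984067 counts each. The count table's columns call the control genotype heterozygous where the labels call it WT, and the name WT follows the labels. In each group 1 library, library A, had 0 counts over 4 Y-linked genes, against at least 2436 counts in every other library, although all mice are labelled male. Markers of the labelled cell type did not stay level: the summed level of 12 Kupffer cell markers after saline ran from 34700 to 42300 CPM (WT) and 39000 to 55900 CPM (sph/sph), and after anti-CD40 from 629 to 1370 CPM (WT) and 25200 to 43300 CPM (sph/sph), with none of the 12 at 0 counts in any group. After anti-CD40 in WT 11 of the 12 fell in edgeR's test, and all 12 were higher in sph/sph than in WT under anti-CD40. The summed level of 15 T and NK cell markers went from 16.9 to 27.8 CPM in WT saline to 254 to 2190 CPM in WT anti-CD40, and 14 of the 15 rose. All 16 erythroid markers in the table were higher in sph/sph under either treatment, with summed levels of 5850 to 9490 CPM against 74.6 to 334 CPM under saline, and of 4810 to 17400 CPM against 35.3 to 211 CPM under anti-CD40. Summed levels of 10 monocyte markers were 125 to 293 CPM in WT saline and 1060 to 2200 CPM in WT anti-CD40, and those of 14 hepatocyte markers were 1610 to 4200 CPM and 726 to 2040 CPM. The part of these cell mixtures in the results below was not tested.

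Promoters of the set carry short motifs of factors known to drive genes of the respiratory chain. RefSeq promoter windows (build GRCm38.p6, 250 bases before to 50 after the start) were found for 66 of the 82 members. Within a window, on either strand, the NRF1 motif GCGCATGC was present in 10 of 66 members (15.2%) against 3.05% of all 27025 genes with a window, the ETS motif CCGGAAG (bound by GABPA) in 16 (24.2%) against 9.93%, the YY1 motif AAGATGGC in 10 (15.2%) against 3.19% and the ERR motif CAAGGTCA in 4 (6.06%) against 1.76%. At least 1 of the 4 motifs was in 32 members (48.5%) and in 16.4% of all genes. The NRF1 motif read on the opposite strand shares most of its letters, so a site of both orientations counts as 1 gene here, and genes with several windows count once. The 27025 genes include genes outside the 13844 tested, so these shares do not compare the members with tested genes alone. A match describes these letters only. Some members with a window rose or fell in WT after anti-CD40 in edgeR's test. Of these, Atp5k, Cox8a and Ndufs4 had a motif. Atp5b, Atp5g1, Atp5s, Cox5b, Cox6b2, Cox7a2, Cox7a2l and Ndufb2 had none. Promoters of 4 of them are printed as examples, 5′ to 3′ on the gene's strand, from 100 bases before the start to 10 from it. Atp5k has an NRF1 motif in both orientations and Cox8a an ETS motif across the start. Both also have an ETS motif past the printed stretch. Cox5b and Cox6b2 have none of the 4 motifs in the window. Capitals mark the motifs.
Atp5k, chr5:108434390-108434499, minus strand: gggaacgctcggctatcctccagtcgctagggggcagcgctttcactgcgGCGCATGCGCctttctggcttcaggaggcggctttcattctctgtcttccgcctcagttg
Cox8a, chr19:7217607-7217716, minus strand: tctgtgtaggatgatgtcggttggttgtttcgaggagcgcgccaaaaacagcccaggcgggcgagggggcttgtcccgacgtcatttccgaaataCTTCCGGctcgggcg
Cox5b, chr1:36691387-36691496, plus strand: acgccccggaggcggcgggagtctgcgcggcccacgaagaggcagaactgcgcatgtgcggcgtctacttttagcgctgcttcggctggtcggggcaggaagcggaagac
Cox6b2, chr7:4753085-4753194, minus strand: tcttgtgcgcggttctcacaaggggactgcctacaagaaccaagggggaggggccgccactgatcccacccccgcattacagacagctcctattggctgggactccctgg
Atp5k, Cox8a and Cox5b were higher after anti-CD40 in WT and Cox6b2 was lower, with values given below.

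Levels between genes were compared as CPM per kb of exonic sequence, averaged over the 12 libraries. The exonic sequence joins the exons of all annotated transcripts of a gene, so a long annotation lowers the value and can change the order. Atp5l, for example, has 6443 exonic bases, whereas its longest protein-coding transcript has 544. Its counts over all libraries were 855, above the 723 of Atp5s. In complex I the level per kb was highest for Ndufa2, an accessory subunit of the matrix arm (107), and lowest for Ndufa4l2 (0.888). In complex II it ran from Sdhc (34.5) to Sdhd (116), both membrane anchor subunits. In complex III it ran from the core protein gene Uqcrc1 (37.3) to Uqcr10, a small subunit (113.5). In complex IV it ran from Cox4i2 (0.922) to Cox6a1 (257), and in complex V from Atp5l, subunit g (0.664), to Atp5a1, the alpha subunit of the catalytic head (190.3). Near-identical copies touched several members: 19 of 82 had a stretch of at least 75 bases with 97% identity in another gene, and for Atp5h, Atp5l, Atp5o, Ndufs3 and Uqcrb such stretches covered 50% or more of the transcript. Cox5b had 45.1% of its transcript covered by the copy Gm11273. The values of these genes are uncertain where reads could be assigned to either copy. In addition 25 members share exonic bases with another protein-coding gene, and whether counting used strand is not stated for these files.

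Isoform families were dominated by their broadly expressed members. Cox4i1 had 175 CPM per kb where Cox4i2, the form known from lung and induced by low oxygen, had 0.922. Cox6a1 had 257 CPM per kb and Cox6a2, the heart and skeletal muscle form, 2.23. Cox6b1 had 242 CPM per kb and Cox6b2, the testis form, 3.85. Cox7a2 had 97.9 CPM per kb and Cox7a1, the muscle form, 1.41. Cox7a2l, which is known to link complex III to complex IV in supercomplexes, had 63.6. Cox8a had 218 CPM per kb, whereas Cox8b, the muscle form, had 1 count in all libraries together and Cox8c, the testis form, had 0. Ndufa4, which matches the complex I pattern but is a subunit of complex IV, had 85.7 CPM per kb and its relative Ndufa4l2 0.888. The 3 genes for subunit c, which build the rotor ring of the ATP synthase from an identical mature protein, differed: Atp5g3 had 81.3 CPM per kb, Atp5g2 19.8 and Atp5g1 12.8. The order of the last 2 rests on exonic lengths of 1675 bases for Atp5g2 and 4912 for Atp5g1. In CPM it was reversed, with 29.8 for Atp5g2 and 41.6 for Atp5g1 on average in WT saline. The filter's edge lay among these isoforms. Cox4i2 was kept with 1 CPM in 3 libraries and Cox6a2, Cox7a1 and Ndufa4l2 with 1 CPM in 4, whereas Cox7b2 and Cox8c (0 counts) and Cox8b fell outside. The 3 libraries of Cox4i2 were all sph/sph. Cox6a2 reached 1 CPM in no WT saline library, but in WT anti-CD40 B and C, sph/sph saline B and sph/sph anti-CD40 C.

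Under saline, the comparison of genotypes in these cell mixtures gave slightly higher values in sph/sph for nearly all members without any single call. The summed level of the 82 genes was 6399, 5877 and 6402 CPM in WT and 7388, 6930 and 8918 CPM in the mutant libraries. The groups did not overlap in this sum, and library C of sph/sph saline was the highest of its group for 72 of the 73 members with at least 10 CPM on average. The ratio of group means was 1.20 for complex I, 1.29 for complex II, 1.21 for complex III, 1.25 for complex IV and 1.27 for complex V. By edgeR's quasi-likelihood test, adjusted over all genes at 0.05, 0 of 82 members were higher, where 1.6% of all genes were, and 0 were lower, where 0.433% were. At an unadjusted p under 0.05 there were 5 members (6.1%), against 13.1% of all genes, and DESeq2 and limma-voom also called 0. The median log2 fold change of the members was 0.30 beside 0.01 over all genes tested, and 77 of 82 members lay above 0, beside 51.4% of all genes. For 34 members the lowest sph/sph library lay above the highest WT library, a pattern found in 16.7% of all genes, and for 0 members the order was reversed, which 14.3% of all genes showed.

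Complex II stood among the more even shifts under saline. Sdha, the flavoprotein that oxidises succinate, had 238, 238 and 236 CPM in WT and 290.5, 284 and 321 CPM in sph/sph. Sdhb, its iron-sulfur partner, had 103, 89.0 and 98.8 CPM against 129, 115 and 158 CPM. The anchors Sdhc and Sdhd had log2 fold changes of 0.50 and 0.25. No overlap was seen for Sdha, Sdhb and Sdhc, and none of the 4 genes passed the test (lowest adjusted p = 0.34 in edgeR). Ndufs3, a core subunit of the matrix arm of complex I, had the lowest adjusted p of the set (0.292, log2 fold 0.54, SE 0.21), and it passed only when the saline groups were fitted alone. The erythroid marker sum was also highest in sph/sph saline C (9493 CPM, against 8533 and 5855 in A and B), the library with the highest member sum.

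**Figure D1:**
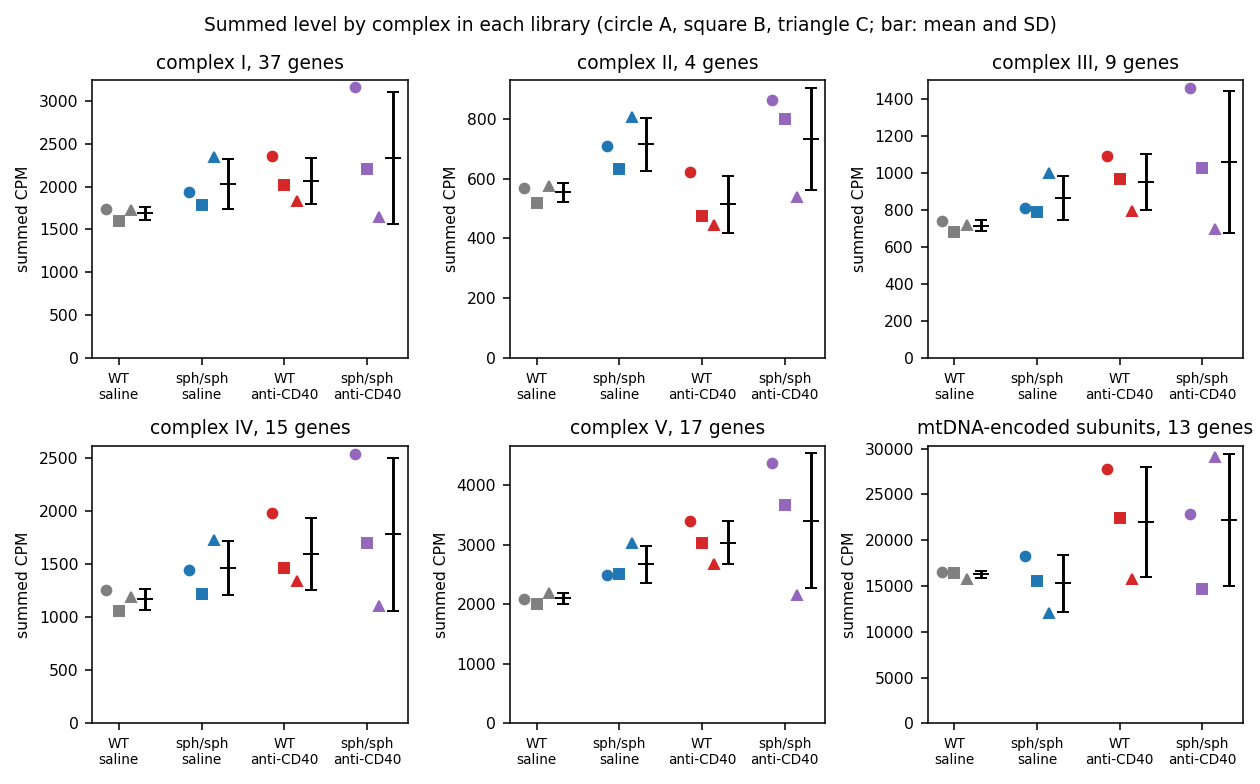
Summed level in CPM (vertical axis, from 0) of the genes of each complex and of the 13 subunits encoded by mitochondrial DNA, for each library (points) in the 4 groups (horizontal axis), with the group mean and SD as a bar. The 3 sph/sph anti-CD40 libraries spread widely in every complex, from 6149 to 12420 CPM over all members, and complex II alone has a lower mean in WT anti-CD40 than in WT saline.

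In WT mice anti-CD40 was followed by higher summed transcript levels of complexes I, III, IV and V, with single rising genes called in I, IV and V only. Complex II did not rise, and a few genes of low level fell steeply. The member sum was 6399, 5877 and 6402 CPM after saline and 9452, 7958 and 7091 CPM after anti-CD40, without overlap. Ratios of group means were 1.23 for complex I, 0.927 for complex II, 1.33 for complex III, 1.36 for complex IV and 1.45 for complex V. Of 82 members 9 rose, where 19.4% of all genes rose, and 4 fell, where 19.7% of all genes fell. In this fit the share of members that changed was thus below that of all genes in either direction. The median log2 fold change in this fit was 0.35 beside 0.05 over all genes, and 70 of 82 members lay above 0. For rising genes the order of the shares was reversed with library totals (23 of 82 members, 2863 of 13844 genes). It was also reversed with the 2 groups alone (26 of 80, 2961 of 13254) and without sph/sph anti-CD40 A or C. Groups did not overlap for 48 members that were higher (29.3% of all genes) and for 5 that were lower (28.0%).

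In complex I 2 of 37 genes rose (5.41%) and 0 fell, beside 19.4% and 19.7% of all genes. Ndufb2, an accessory subunit of the membrane arm, had 16.6, 14.4 and 16.7 CPM after saline and 31.8, 33.0 and 23.9 CPM after anti-CD40, a log2 fold change of 0.89 (SE 0.32, adjusted p = 0.0461). Ndufs4, an accessory subunit of the matrix arm that is needed for a stable complex, had 43.8, 37.7 and 43.6 CPM and then 84.5, 60.3 and 56.3 CPM (log2 fold 0.68, SE 0.25, adjusted p = 0.0499). Every anti-CD40 library of both genes lay above every saline library, library A or B being the highest. Ndufv1, the core subunit that carries the flavin, was at 0.03 and Ndufs1, a core subunit with iron-sulfur clusters, at -0.04 on the log2 scale, and neither passed. Ndufa4 was at 0.01 and Ndufa4l2 at -1.98 (SE 0.75, adjusted p = 0.0582), with 0.450, 3.41 and 0.942 CPM after saline and 0.665, 0.262 and 0.295 CPM after anti-CD40. The high value of WT saline B carried most of that difference, and the groups overlapped.

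Complex II gave 0 calls in either direction, where 19.4% of all genes rose and 19.7% fell. Sdha had 219, 186 and 190.5 CPM after anti-CD40, all below the saline libraries, with a log2 fold change of -0.26 (SE 0.14, adjusted p = 0.164). Sdhb and Sdhc were at 0.09 each and Sdhd at -0.15. In complex III, too, 0 of 9 genes passed, all 9 lay above 0, and the nearest was Cyc1, cytochrome c1, which hands electrons to cytochrome c. It had 74.5, 70.4 and 70.3 CPM after saline and 121, 160.3 and 89.1 CPM after anti-CD40 (log2 fold 0.79, SE 0.29, adjusted p = 0.0524). Its groups did not overlap, and library B was the highest.

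Complex IV held 7 of the 13 calls. Of its 15 genes 4 rose (26.7%) and 3 fell (20.0%), beside 19.4% and 19.7% of all genes. Cox5b, a peripheral subunit that binds zinc, had 56.9, 43.2 and 48.6 CPM after saline and 112, 107 and 94.2 CPM after anti-CD40 (log2 fold 1.07, SE 0.33, adjusted p = 0.0281). Cox8a, a small membrane subunit, had 101, 78.9 and 77.7 CPM and then 220.3, 164 and 137 CPM (log2 fold 1.02, SE 0.34, adjusted p = 0.0371). Cox7a2 had 68.4, 56.7 and 65.1 CPM and then 162, 115 and 96.6 CPM (log2 fold 0.98, SE 0.31, adjusted p = 0.0293). In all these genes the anti-CD40 libraries lay above the saline libraries, and for Cox8a and Cox7a2 library A was well above the others. Cox7a2l moved the other way, with 110, 101 and 105 CPM after saline and 87.7, 61.9 and 58.2 CPM after anti-CD40 (log2 fold -0.60, SE 0.20, adjusted p = 0.0378). Cox4i1, Cox6a1 and Cox6b1, the main isoforms of their families, were at 0.33, 0.76 and 0.54 on the log2 scale and did not pass (adjusted p = 0.341, 0.073 and 0.194).

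The steepest changes of complex IV were in isoforms of low level. Cox6b2 had 4.50, 3.24 and 2.44 CPM after saline and 0.199, 0.524 and 0.443 CPM after anti-CD40 in WT (log2 fold -3.08, SE 0.58, adjusted p = 0.00267), from 173 counts to 22, a ratio of 8.26 with a 95% exact counting interval of 5.28 to 13.5. Cox4i2 had 0.514, 0.824 and 0.166 CPM and then 0.0665, 0.105 and 0.0492 CPM (log2 fold -2.65, SE 0.75, adjusted p = 0.0187), from 26 counts to 4, a ratio of 6.83 with an interval of 2.37 to 26.9. For both genes every anti-CD40 library lay below every saline library. Cox6a2 had 0, 0.165 and 0.222 CPM and then 0.665, 7.03 and 3.64 CPM (log2 fold 4.76, SE 1.10, adjusted p = 0.00738), from 7 counts to 218, a ratio of 29.7 with an interval of 14.1 to 74.6. Its anti-CD40 libraries differed among themselves by more than any other called member, B being the highest and A the lowest. These intervals cover counting error only. Cox6a2 passed the member filter partly through WT anti-CD40 B and C and through no WT saline library, so its rise is not independent of that filter. The summed T and NK cell markers of WT anti-CD40 A, B and C were 254, 2195 and 828 CPM, the same order as Cox6a2. Proliferating cell markers (294.8, 895.5 and 478.5 CPM) and cytosolic ribosomal proteins (23910, 30790 and 25490 CPM) had that order too. The other marker lists had other orders. The part of these cells in this result was not tested. Cox6a2 shares 70 exonic bases with Itgad on the opposite strand, which had 0, 0.734 and 0.0984 CPM in those libraries. Cox6b2 and Cox4i2 fell along with the Kupffer cell markers given above, and the part of these cells in their fall was not tested. Cox7a1 had 0.321, 0.275 and 0.831 CPM and then 1.46, 0.210 and 0.148 CPM, with overlap and no call.

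In complex V 3 of 17 genes rose (17.6%) and 1 fell (5.88%), beside 19.4% and 19.7% of all genes. Atp5b, the catalytic beta subunit, had the highest CPM of the set, with 521, 533 and 564 CPM after saline and 1074, 929 and 890 CPM after anti-CD40 (log2 fold 0.84, SE 0.25, adjusted p = 0.0239). Atp5k, subunit e, had 33.3, 32.9 and 35.0 CPM and then 74.8, 55.6 and 46.3 CPM (log2 fold 0.80, SE 0.29, adjusted p = 0.048). Atp5g1 had 42.3, 40.5 and 41.9 CPM and then 72.4, 72.4 and 60.7 CPM (log2 fold 0.72, SE 0.26, adjusted p = 0.046). In all these genes the groups did not overlap. Atp5g2 and Atp5g3, which encode the same mature subunit c as Atp5g1, were at 0.14 and 0.60 and did not pass, and Atp5a1, the alpha subunit, was at 0.24. Atp5s, known as coupling factor B and not a core subunit, fell from 4.30, 3.62 and 3.21 CPM to 2.33, 2.36 and 2.02 CPM (log2 fold -0.73, SE 0.26, adjusted p = 0.0462), again without overlap. Atpif1, the inhibitor of the F1 ATPase, is outside the symbol rule and had 85.2 ± 6.28 CPM (SD, n = 3) after saline and 60.8 ± 24.0 CPM (SD, n = 3) after anti-CD40, with no call.

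**Figure D2:**
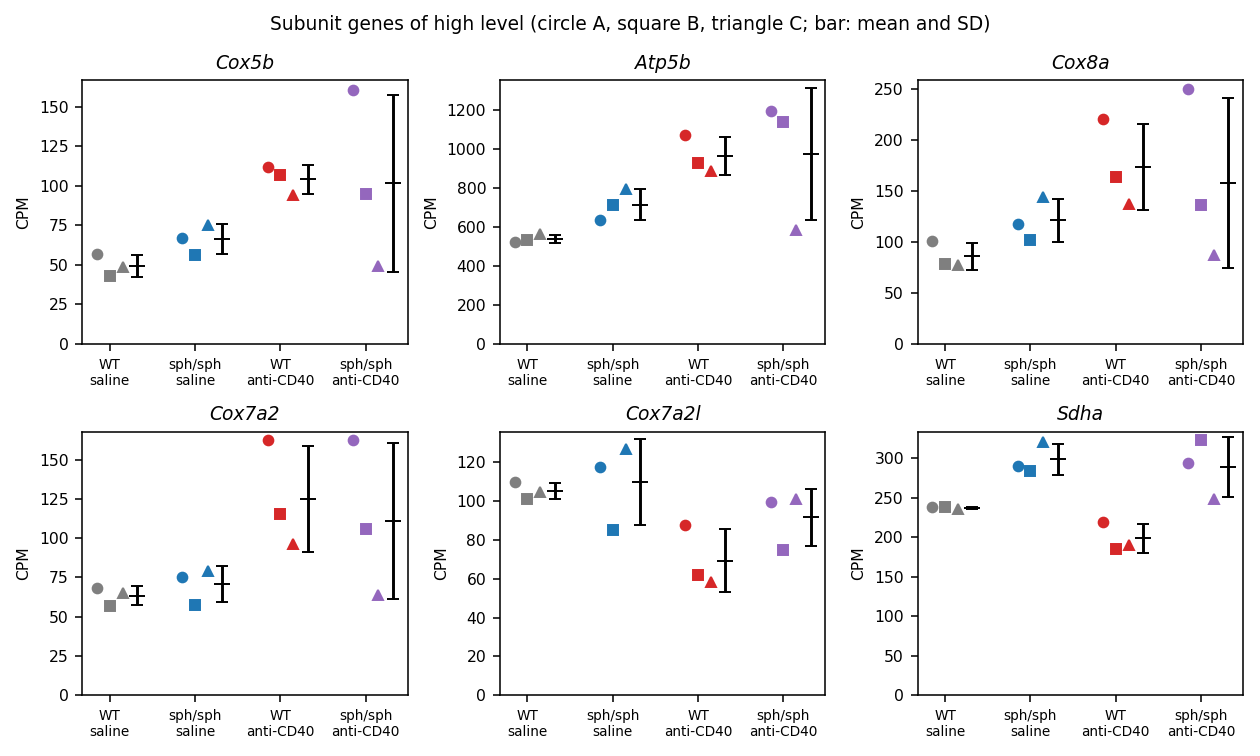
Level in CPM (vertical axis, from 0) of 6 members of high level in each library (points) by group (horizontal axis), with the group mean and SD as a bar. In WT, Cox5b, Atp5b, Cox8a and Cox7a2 are higher and Cox7a2l is lower after anti-CD40, whereas the sph/sph anti-CD40 libraries range from 49.6 to 161 CPM for Cox5b.

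The calls in WT depended on the libraries. Leaving out WT saline A, B or C, or WT anti-CD40 A or B, left 1 member called as rising, Cox6a2. Over all genes 1724, 1647, 1832, 2476 and 1908 rose in these fits, in that order. Without WT anti-CD40 C 5 members rose, beside 2026 of all genes. Without sph/sph saline A, B or C, which are in neither group compared, 4, 5 and 6 members rose, beside 2420, 2552 and 2555 genes. Without sph/sph anti-CD40 A, B or C 23, 5 and 25 members rose, beside 2900, 2759 and 3297 genes. Each of these fits tested 14052 to 14184 genes. Cox6a2 and Cox6b2 were the only members called under all 19 alternatives tried, with adjusted p up to 0.0294 and 0.0199. For the others the highest adjusted p ran from 0.0746 (Cox4i2) to 0.167 (Ndufs4). Scaling by library totals gave 23 rising members and 3 falling, beside 2863 and 2363 of 13844 genes.

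In sph/sph mice the same treatment gave 0 calls, with libraries that spread widely. The member sum was 7388, 6930 and 8918 CPM after saline and 12420, 9394 and 6149 CPM after anti-CD40, so the latter held both the highest and, but for 1 WT saline library, the lowest sum of all 12. Library A was the highest of its group for 69 of the 73 members with at least 10 CPM and library C the lowest for 68. The median SD of these members on the log2 scale was 0.529, against 0.331 for other genes of that level, and it was 0.223 in sph/sph saline, 0.248 in WT anti-CD40 and 0.104 in WT saline. By edgeR 0 of 82 members rose (0.578% of all genes) and 0 fell (0.202%), 3 had an unadjusted p under 0.05 (3.66%, against 21.0% of all genes), and DESeq2 and limma-voom also called 0. The median log2 fold change was 0.26 beside 0.04 over all genes, and 77 members lay above 0. Groups did not overlap for 1 member that was higher, Atp5l (10.0% of all genes), and for 1 that was lower, Cox7a1 (11.6%), both singled out after their values were seen.

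Members that rose in WT had these values in sph/sph. Cox5b had 67.0, 56.3 and 75.2 CPM after saline and 161, 94.8 and 49.6 CPM after anti-CD40 (log2 fold 0.62, SE 0.33). Atp5b had 638.5, 713 and 796 CPM and then 1198, 1142 and 583 CPM (0.45, SE 0.25). Atp5g1 had 52.2, 52.8 and 62.4 CPM and then 116, 90.7 and 47.9 CPM. Atp5k had the lowest adjusted p of the set here (0.194, log2 fold 0.71, SE 0.29). For Cox5b, Atp5b and Atp5g1 anti-CD40 A and B lay above all saline libraries and C did not. Without library C 12 members rose: Atp5b, Atp5g1, Atp5g3, Atp5k, Atp5o, Cox5b, Cox7a2, Cox7b, Cyc1, Ndufa5, Ndufa8 and Ndufb6. In that fit 1382 of 14066 genes rose. Without library A 0 members were called, beside 1 of 14153 genes, and the median of the members fell to -0.02. The isoforms that changed most in WT were not called here. Cox6b2 was at -0.15 on the log2 scale, with 5.05, 12.3 and 3.61 CPM and then 6.98, 3.70 and 8.19 CPM. Cox4i2 had the highest fold change of the set in sph/sph, 0.92 (SE 0.60), with 1.06, 0.593 and 0.756 CPM and then 2.35, 1.48 and 0.755 CPM. Cox6a2 had 0.465, 1.37 and 0.582 CPM and then 0.829, 0.666 and 2.59 CPM (0.76, SE 0.92). The groups of all these isoforms overlapped.

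Library C of sph/sph anti-CD40 also differed in cell markers. Its summed monocyte markers were 369 CPM against 1906 and 1255 CPM in A and B, its B cell markers 3362 CPM against 267 and 75.8 CPM, and its erythroid markers 4814 CPM against 13270 and 17400 CPM. Its T and NK cell markers were 150 CPM against 66.8 and 6.80 CPM, and 12.4 to 23.6 CPM in sph/sph saline. It was also the highest of its group in neutrophil (312 CPM), dendritic cell (135), hepatocyte (4310), sinusoidal endothelial (3013) and stellate cell (284) markers. Kupffer cell markers were lowest in it (25220 CPM), and proliferating cell markers lay between those of A and B. Acod1, which activated macrophages are known to induce, had 365 and 395 CPM in A and B and 0.324 CPM in C, against 0.772 to 2.53 CPM in sph/sph saline. Hif1a had 127 and 157 CPM in A and B and 74.6 CPM in C, against 63.8 to 78.3 CPM in sph/sph saline. For both genes library C was thus near the saline libraries of its genotype. The part of these differences in the low member values of that library was not tested. Other gene sets were compared between the same libraries. Relative to WT saline, the median log2 deviation of the members was 0.98, 0.51 and -0.02 in sph/sph anti-CD40 A, B and C, and that of the 78 genes of the mitochondrial ribosome was 0.97, 0.43 and 0.04. For 944 other protein-coding genes of at most 1500 exonic bases it was 0.52, 0.08 and 0.02, and for genes of over 5000 exonic bases -0.20, -0.05 and 0.05. The 81 cytosolic ribosomal protein genes had 0.62, 0.08 and 0.43, with library C above B, unlike the members. Members are short, with a median of 1578 exonic bases against 4296 over all genes tested, and the part of transcript length in these deviations was not tested.

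**Figure D3:**
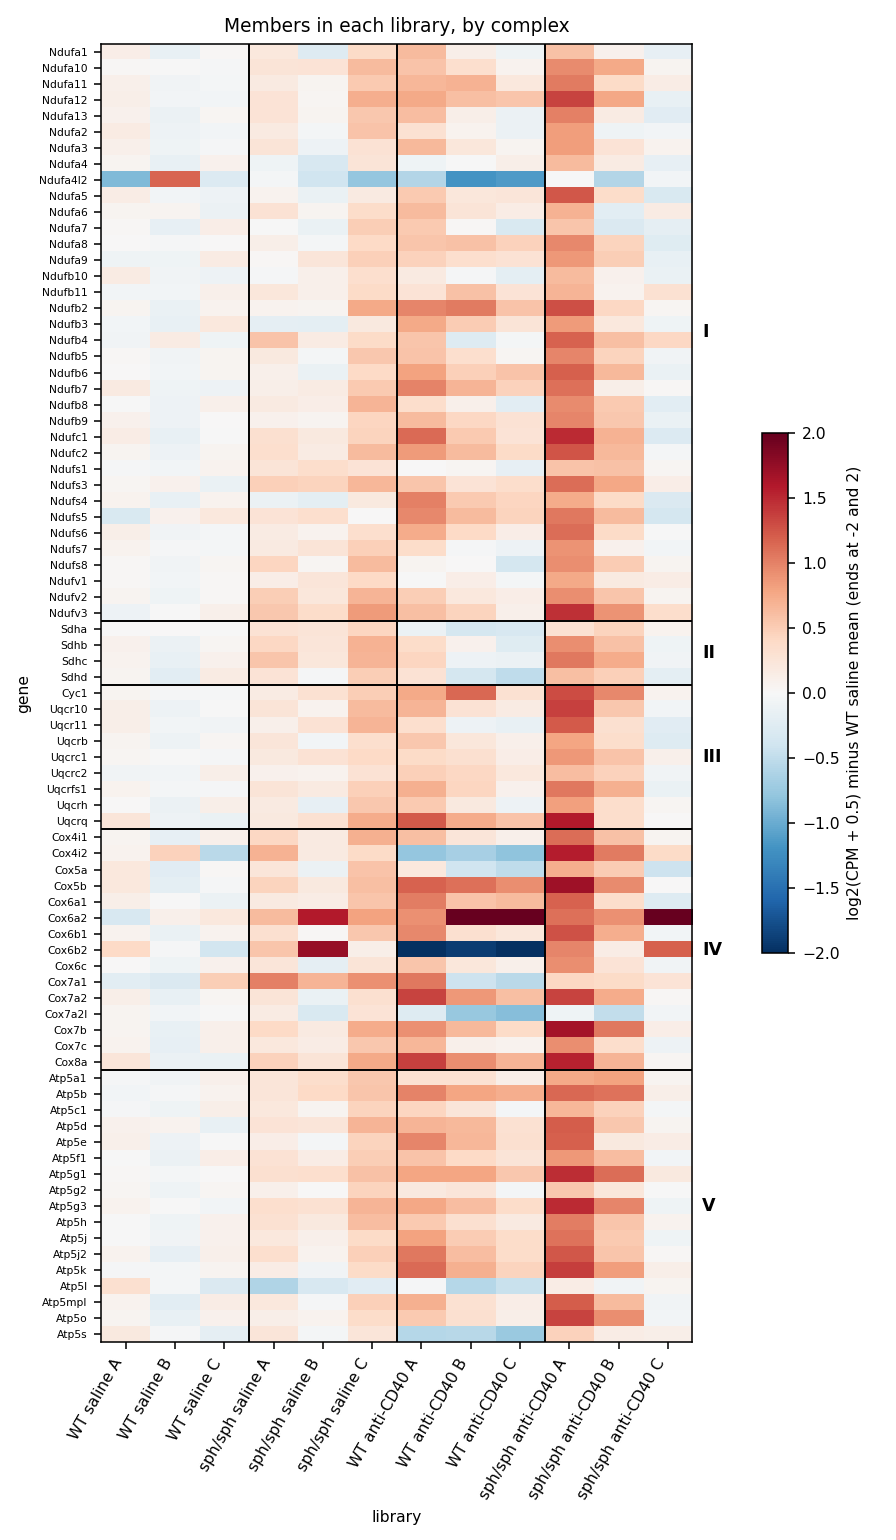
Level of 81 of the 82 members (rows, by complex I to V) in each of the 12 libraries (columns), as log2(CPM + 0.5) minus the mean of the 3 WT saline libraries, with colours ending at -2 and 2. Library A of sph/sph anti-CD40 is red in nearly all rows and library C is pale, and the rows of Cox4i2, Cox6a2, Cox6b2, Ndufa4l2 and Atp5l depart from their neighbours.

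Under anti-CD40 the genotypes differed in 4 members, all higher in sph/sph, where 11.5% of all genes were higher, and in 0 that were lower, where 6.19% of all genes were. Cox6b2 had 0.199, 0.524 and 0.443 CPM in WT and 6.98, 3.70 and 8.19 CPM in sph/sph (log2 fold 3.97, SE 0.60, adjusted p = 0.00176), a ratio of counts of 16.1 with a 95% exact counting interval of 10.4 to 26.1. Cox4i2 had 0.0665, 0.105 and 0.0492 CPM and 2.35, 1.48 and 0.755 CPM (log2 fold 4.24, SE 0.75, adjusted p = 0.00412), a ratio of 19.9 with an interval that starts at 7.42. Both genes were called under all 19 alternatives, and their groups did not overlap. Cox4i2 passed the member filter through sph/sph libraries alone, so its higher level in sph/sph is not independent of that filter. Atp5s had 2.33, 2.36 and 2.02 CPM and 5.25, 4.14 and 4.04 CPM (log2 fold 1.00, SE 0.26, adjusted p = 0.0248). Sdha had 219, 186 and 190.5 CPM and 294, 323 and 248 CPM (log2 fold 0.54, SE 0.14, adjusted p = 0.0241). Neither gene overlapped between groups. Fitting these 2 groups alone, or leaving out WT anti-CD40 B or C or sph/sph anti-CD40 A, left 2 members called, Cox4i2 and Cox6b2. Over all genes 494, 1014, 954 and 1419 were higher in these fits, in that order. Leaving out sph/sph anti-CD40 B left 3 members, where 1259 of 14184 genes were higher. Leaving out sph/sph anti-CD40 C gave 19, where 1893 of 14066 genes were higher. Kupffer cell markers, as given above, were higher in the same sph/sph libraries, and their part in these 4 results was not tested.

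The other members did not pass the test between genotypes under anti-CD40. The median log2 fold change was 0.19 beside 0.08 over all genes, and 63 of 82 members lay above 0. Complex II had the highest median (0.51), with Sdhb at 0.44, Sdhc at 0.56 and Sdhd at 0.48, none of which passed. Complexes I, III, IV and V had medians of 0.14, 0.20, 0.21 and 0.18. Genes that rose in WT were at -0.04 for Cox5b, -0.14 for Cox8a, -0.17 for Cox7a2, -0.20 for Ndufb2, -0.35 for Ndufs4, 0.01 for Atp5b, 0.07 for Atp5k and 0.31 for Atp5g1. Cox6a2, the steepest riser in WT, was at -1.46 (SE 0.91, adjusted p = 0.307), with groups that overlapped. Ndufa4l2 was at 1.35 (SE 0.75, adjusted p = 0.252), without overlap. Groups did not overlap for 7 members that were higher (16.6% of all genes) and for 0 that were lower (11.7%). Without sph/sph anti-CD40 A the median was -0.12, and without library C it was 0.39.

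The difference between the responses was tested itself as an interaction term, with a positive value where sph/sph responded more positively than WT. By edgeR 0 members passed in the positive direction (3.18% of all genes) and 0 in the negative direction (1.12%), and 4 had an unadjusted p under 0.05 (4.88%, against 18.8% of all genes). Cox6b2 came nearest (log2 difference 2.93, SE 0.76, adjusted p = 0.0607), followed by Cox4i2 (3.57, SE 0.96, adjusted p = 0.0693) and Cox6a2 (-4.00, SE 1.41, adjusted p = 0.151). By limma-voom 0 passed, and DESeq2 called 2 in the positive direction, Cox4i2 and Cox6b2, and 1 in the negative, Cox6a2. Cox6b2 also passed without sph/sph saline B, and Cox4i2 without sph/sph anti-CD40 C. For the abundant genes that rose in WT the interaction was -0.45 (SE 0.47) for Cox5b and -0.39 (SE 0.35) for Atp5b. A different response of these genes in the mutant was not detectable with this spread.

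**Figure D4:**
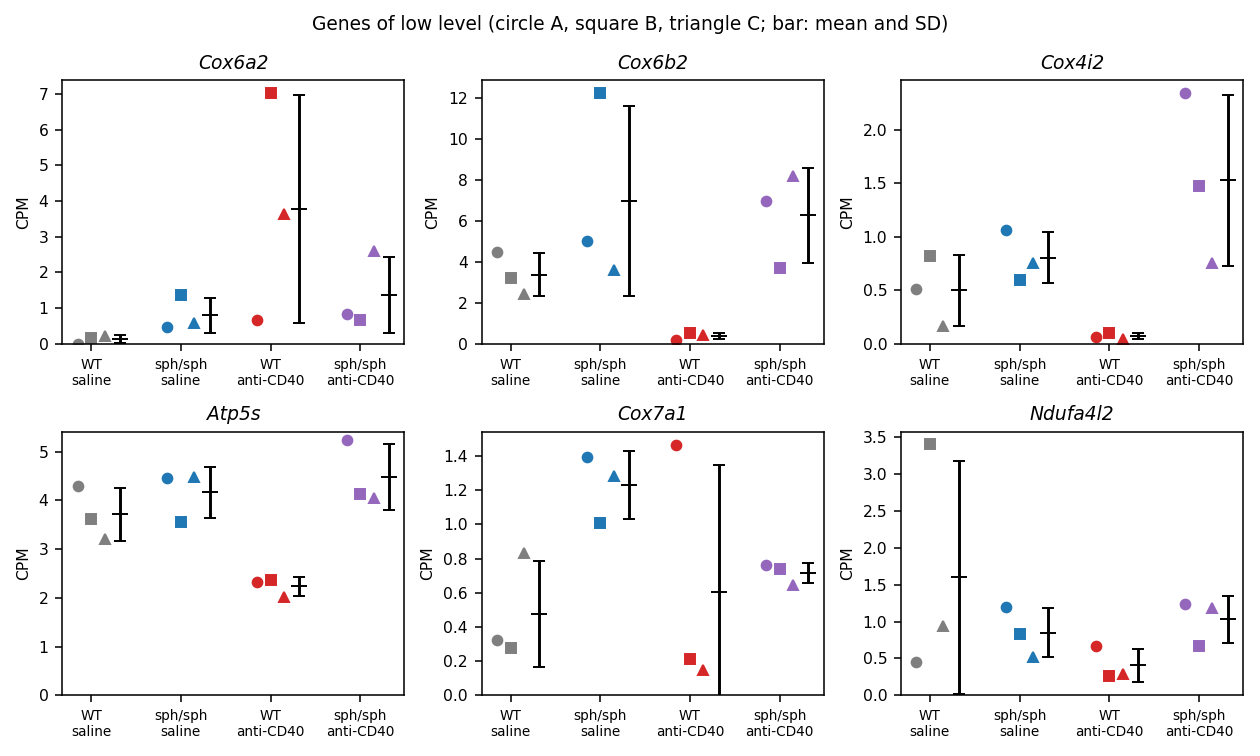
Level in CPM (vertical axis, from 0) of 6 members of low level in each library (points) by group (horizontal axis), with the group mean and SD as a bar (the axis ends at 0, below which the SD of Cox7a1 in WT anti-CD40 reaches). Cox6b2, Cox4i2 and Atp5s are lowest in WT anti-CD40 and near or above the saline level in sph/sph anti-CD40, and Cox6a2 is highest in WT anti-CD40 B at 7.03 CPM.

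**Figure D5:**
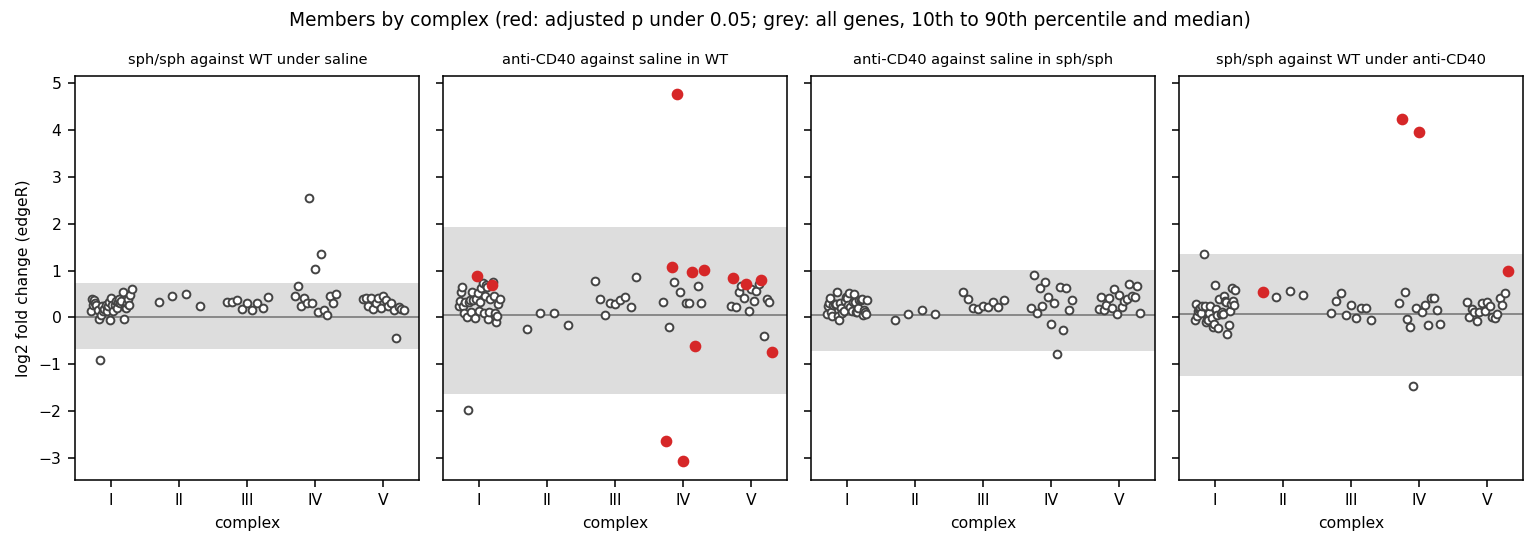
Log2 fold change by edgeR (vertical axis) of each member, grouped by complex I to V (horizontal axis), in 4 comparisons (panels), with called members filled in red, and all genes tested as a grey band from the 10th to the 90th percentile with a line at the median. Most members sit inside the band, and the called members of complex IV reach 4.76 and -3.08 in WT.

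The subunits made from mitochondrial DNA had a ratio of means like that of the nuclear ones in WT. Their libraries were in another order in WT saline and in both sph/sph groups. The ratio of summed levels after anti-CD40 to those after saline in WT was 1.35 for them and 1.31 for the members. Only 7 of the 13 could be tested, since mt-Co2, mt-Co3, mt-Atp6, mt-Atp8, mt-Nd3 and mt-Nd4l had at most 18 counts in all libraries together. Their summed level after saline was 16530, 16460 and 15790 CPM (WT) and 18260, 15500 and 12050 CPM (sph/sph). After anti-CD40 it was 27760, 22460 and 15750 CPM (WT) and 22850, 14710 and 29110 CPM (sph/sph). WT anti-CD40 C thus lay below every WT saline library, unlike in the nuclear sum, and 0 of the 7 genes were called in WT. Within sph/sph saline and sph/sph anti-CD40 the order of the libraries was not that of the nuclear members: library C had the highest nuclear and the lowest mitochondrial sum under saline, and the lowest nuclear and highest mitochondrial sum under anti-CD40. In WT anti-CD40 library A had the highest and library C the lowest of both sums. Of the 7 genes 1 was called in 1 comparison: mt-Nd6, a membrane subunit of complex I, was lower in sph/sph under saline (log2 fold -1.33, SE 0.29, adjusted p = 0.0479), from 9.57, 14.1 and 11.8 CPM to 6.65, 3.98 and 3.49 CPM.

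Genes that build, supply and control the chain moved in both directions in WT after anti-CD40. Their counts are to be read against the 19.4% of all genes that rose and the 19.7% that fell. Of 48 assembly factors 7 rose and 4 fell. Sdhaf1, which inserts iron-sulfur clusters into complex II, rose most (log2 fold 1.85, SE 0.31, adjusted p = 0.00143), followed by Cox17, a copper chaperone of complex IV (1.80), and Lyrm7, a chaperone of the Rieske protein (1.41). Nubpl, Surf1 and Coa7 fell, by 0.94, 0.62 and 0.59 on the log2 scale. Sdhaf1 was also the 1 assembly factor called in sph/sph mice (1.67, SE 0.31, adjusted p = 0.0475), and Foxred1, an assembly factor of complex I, the 1 that was higher in sph/sph than in WT under anti-CD40 (0.63). Of 20 genes of mitochondrial protein import 8 rose and 0 fell, led by Timm23 (1.37), Tomm40 (1.26) and Timm17a (1.23), which form the import channels. Of 78 genes of the mitochondrial ribosome 18 rose, close to the share of all genes, and 1 fell, led by Mrpl38 (1.53), Mrpl52 (1.38) and Mrpl53 (1.07), with Mrpl3 at -0.71. Import and ribosome genes had medians of 0.50 and 0.45 on the log2 scale, beside 0.35 for the members.

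Of 22 genes for electron carriers and entry points 4 rose and 7 fell in WT, where 19.4% of all genes rose and 19.7% fell. Pdss1, which makes the tail of ubiquinone, rose (1.44), as did Cycs, cytochrome c (1.40), and Coq10b (0.85). Coq8a (-2.18), Coq10a (-1.28) and Etfb (-0.77), a subunit of the electron transfer flavoprotein that feeds electrons from fatty acid oxidation, fell. Under anti-CD40 5 of these genes were higher in sph/sph than in WT and 0 were lower, where 11.5% and 6.19% of all genes were, led by Coq10a (0.96), Etfb (0.83) and Etfdh (0.60). Of 22 genes of the tricarboxylic acid cycle and pyruvate entry 4 rose and 3 fell in WT, to be read against the same 19.4% and 19.7% of all genes. Acod1, which makes itaconate, an inhibitor of succinate dehydrogenase, rose (7.06, SE 1.77, adjusted p = 0.0109), as did the pyruvate carrier subunit Mpc1 (1.19) and Mdh2 (0.97). Idh2 (-1.60), Idh3g (-0.89) and Suclg2 (-0.73) fell. Under anti-CD40 Idh2 (1.43) and Idh3g (0.83) were higher in sph/sph.

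Of 19 regulators of these genes 3 rose and 4 fell in WT, where 19.4% of all genes rose and 19.7% fell. Hif1a, the oxygen-regulated factor that favours glycolysis, rose from 76.0 ± 4.17 to 383.5 ± 67.1 CPM (SD, n = 3 each; log2 fold 2.34, SE 0.25, adjusted p = 0.00012). Gabpb1, the partner of the ETS factor GABPA, rose by 1.20 and the coactivator Pprc1 by 0.63, whereas Nrip1 (-1.35), Ppargc1b (-0.84) and Tfb2m (-0.83) fell. Gabpb1 was the 1 regulator called in sph/sph mice (0.63, adjusted p = 0.0495). Under anti-CD40 Hif1a (-1.68) and Gabpb1 (-0.54) were lower and Ppargc1b (1.10) and Tfb2m (0.68) higher in sph/sph than in WT. Nrf1, whose motif is in 10 of the 66 promoters, was at 0.18 in WT and did not pass.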

How the data were processed

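Counts per gene were used as the authors deposited them, as 1 table of raw read counts with 1 column per library. STAR 2.7.0e, SAMtools 1.9, featureCounts and genome build GRCm38.p5 are named in the submitters' processing notes. Which annotation, strand setting and rule for reads with several matches were used is not given in the sources used here. Per the labels' protocols, a TruSeq kit that keeps strand was used. Symbols, exonic lengths and coordinates came from a GENCODE annotation of GRCm38.

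Genes were tested with edgeR 4.0.16 in R 4.3.3: TMM scaling, filterByExpr, quasi-likelihood F test, 1 mean per group over all 12 libraries, and Benjamini-Hochberg adjustment over 13844 genes, called under 0.05. Printed CPM use TMM-scaled library sizes. The standard error is the log2 fold change divided by the root of F. The tests were also run on simulated counts with known changes. These counts were drawn gene by gene, without a shift shared by genes of a library, so they do not cover members that move together. Alternatives were RLE scaling, library totals, no filter, DESeq2 1.42.0, limma-voom (limma 3.58.1), the 2 compared groups alone, a sex term, and each library left out in turn. Near-identical copies were searched with blastn 2.17.0.

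The members and gene lists were chosen with earlier results of these data known. Lists covered the mitochondrially encoded subunits, assembly factors, electron carriers and entry points, the tricarboxylic acid cycle, regulators, protein import and the mitochondrial ribosome, and markers of Kupffer cells, monocytes, neutrophils, T and NK cells, B cells, dendritic cells, hepatocytes, sinusoidal endothelial cells, stellate cells, erythroid cells and proliferating cells. Sets of short genes, long genes and cytosolic ribosomal proteins were added after seeing the data. Named genes were, per comparison and complex, up to 3 called members per direction with the largest log2 fold change, the highest and lowest member per kb of each complex, the isoform families, complex II, members or inhibitors with a role other than subunit, members called against the majority, and up to 3 called genes per direction of each other list. Other named members were chosen after their values were seen. The replicates are taken as separate mice from the series' design text. The values of 1 member are not reported here, although it is counted in the sums and counts.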

Additional observations from a re-analysis of the deposited data

Results flagged for a closer look

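Among the genes that control or feed the chain, 2 responded to anti-CD40 differently in the genotypes by the test of the interaction itself. The lists held 19 regulators, 22 carriers and entry points, and 22 genes of the tricarboxylic acid cycle and pyruvate entry. Over all genes 4.3% passed this test in either direction, and 2 calls are not above that share. The response of Hif1a was smaller in sph/sph than in WT (log2 difference -1.56, SE 0.34, adjusted p = 0.0316 in edgeR). The response of Idh2, which makes NADPH in the mitochondrial matrix, was less negative in sph/sph than in WT (log2 difference 1.12, SE 0.24, adjusted p = 0.0298 in edgeR). Of 18 alternatives, 10 kept the call for Hif1a (log2 difference -1.81 to -1.29, adjusted p 0.00077 to 0.0949) and 9 that for Idh2 (1.03 to 1.28, adjusted p 0.00153 to 0.0936). Both calls were lost without WT anti-CD40 B or C, without any 1 of the WT saline libraries, and without sph/sph saline A or B. That for Hif1a was also lost without sph/sph saline C, and that for Idh2 without sph/sph anti-CD40 A or B. In sph/sph anti-CD40 C, Hif1a was near the saline level, and without that library the differences were -1.29 (adjusted p = 0.0162) and 1.22 (adjusted p = 0.0208). Of 12 Kupffer cell markers, 10 had a positive interaction past the threshold, the direction of Idh2 and opposite to that of Hif1a. Their part in either value was not tested.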

How the results depend on the processing

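Counts of called members moved with the setting. In WT, library totals gave 23 rising members, no filter 5, limma-voom 2 falling, and the 2 groups alone 26 rising and 2 falling, against 9 and 4. Over all genes 2863, 2424 and 2961 rose with library totals, no filter and the 2 groups alone, against 2690. With 1 library left out, 1 to 25 members rose and 1 to 4 fell in WT, and 0 to 12 rose in sph/sph. The same fits had 1647 to 3297 of all genes rising and 2104 to 3286 falling in WT, and 0 to 1382 rising in sph/sph. Between genotypes under anti-CD40 2 to 19 members were higher, with a median log2 fold change of -0.122 to 0.392, and 2 with the 2 groups alone. For the interaction 0 to 1 passed in the positive direction with a library left out, with a median of -0.408 to 0.139, and DESeq2 called 2 positive and 1 negative. Under saline the 2 groups alone called 1 member, Ndufs3. A sex term gave 11 rising and 4 falling members in WT and changed no other count of members. Over all genes DESeq2 called 726 up and 654 down in sph/sph against 80 and 28 in edgeR, and 568 and 263 against 222 and 60 for genotype under saline. The interaction gave 834 and 559 in DESeq2 against 440 and 155. With the 2 groups alone, 533 genes were higher and 358 lower for genotype under saline, 494 and 241 for genotype under anti-CD40 against 1598 and 857, and 0 and 0 in sph/sph. Without sph/sph anti-CD40 C, 1382 genes rose and 990 fell in sph/sph. The causes were not tested. No paired analysis was possible because the groups compared share fewer than 2 numbers: the columns carry no replicate numbers, and within each treatment library A of WT and library A of sph/sph alone share an identification number, whose meaning is not given. The depth limits Cox4i2 and Cox6a2, with 4 and 7 counts in their lower group in WT.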
